A study of Mus musculus with 12 samples.

Results

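Luminal and basal epithelial cells sorted from the prostates of castrated mice were set against each other on 3 arrays each, 6 of the 12 arrays of a study that also held 3 arrays of each cell type from intact mice. The arrays were chosen by their titles alone. Castrated luminal cells were negative for lineage markers, positive for the epithelial surface protein EpCAM and low for the integrin CD49f. Castrated basal cells differed in the gate by high CD49f. Both came from C57BL/6 males whose testes were removed surgically at 8 weeks of age and whose prostates were dissociated 4 weeks later. Intact luminal and intact basal cells were sorted by the same gates from paired males that kept their testes. No transgene or mutant allele is named for any group. The 3 replicates of a group are described as distinct sets of animals, and how many animals made a set is not given in the sources used here, so the p-values below measure the spread between these sets.

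The prostate gland is lined by tall secretory luminal cells, which depend on androgen bound to its nuclear receptor and shrink or die when it is withdrawn. Basal cells lie beneath them on the basement membrane, carry the transcription factor p63 and the keratins K5 and K14, and for the most part outlive castration. Surgical removal of the testes takes away the main source of androgen, so this comparison asks what still separates the cell types without it.

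Expression was measured as the Affymetrix MAS5 signal of each probe set, in units of a common scale on which the trimmed mean of each array was 500. For the tests, signals were taken as log2 of signal plus 16, and 14645 genes, each read from 1 probe set, were tested. Arrays of castrated luminal cells were the most alike, with pairwise Pearson correlations across genes of 0.959 to 0.967, against 0.878 to 0.914 for castrated basal arrays. The median standard deviation of a gene was 0.321 log2 units on castrated luminal arrays and 0.613 on castrated basal arrays. Castrated basal replicate 3 stood apart from the other arrays of its group on the third principal component, at -82.2 against -5.52 and -7.95, and had the lowest weight of the 6 arrays. Each array is a pool of sorted cells, so a change within cells and a change in which cells passed the gate cannot be told apart, nor can fewer cells of a type and less RNA per cell.

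The 2 surface proteins of the gate served as a check of the labels and are no findings. Itga6, which encodes CD49f, had signals of 5198, 3942 and 6271 on the castrated luminal arrays, against 9600.5, 10082 and 11517 on the castrated basal arrays, and the groups did not overlap. Epcam had signals of 21067, 26424 and 20854 on the castrated luminal arrays, against 20788, 21288 and 26161 on the castrated basal arrays, and the groups overlapped (adjusted p = 0.996). Of 11 reference genes, 2 were higher, 5 lower and 4 did not pass. Gusb (2.24 ± 0.57, with the call lost without castrated luminal replicate 2, at 2.01) and the respiratory chain gene Sdha (1.83 ± 0.31) were higher, and the transferrin receptor Tfrc (-1.53 ± 0.25) lower. Actb (-0.70 ± 0.16), Ywhaz (-0.69 ± 0.15), Rplp0 (-0.51 ± 0.15) and Eef1a1 (-0.50 ± 0.14) were also lower in luminal cells as scaled by the authors. These 4 lost their calls under quantile normalization, where Rplp0 and Eef1a1 turned positive, so small differences among genes of high signal depended on the scaling. Omitting 1 array ended the Eef1a1 call (without castrated luminal replicate 1 or 3 or castrated basal replicate 3, at -0.50 to -0.36) and the Rplp0 call (without castrated luminal replicate 1, 2 or 3 or castrated basal replicate 3, at -0.55 to -0.34). Here and below, each difference is castrated luminal minus castrated basal on the log2 scale ± its standard error, from limma with 3 arrays per group and p-values adjusted over all genes tested by the Benjamini-Hochberg method. Its standard error draws on the spread within each of the 4 groups. A signal is called dim where it lay below the 40th percentile of its array, which was 33.3 to 44.9 units on the castrated arrays, and the size of a difference from a group that is dim throughout depends on the constant added. Where signals of castrated arrays are given below, luminal and basal arrays did not overlap unless an overlap is stated. By comparison, 41.1% of all genes did not overlap between luminal and basal cells in castrated mice, and 32.0% in intact mice. Genes were named by a rule on rank and list, and those added after their values had been seen are listed with the processing.

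Without testicular androgen the cell types differed at 2701 genes, 18.4% of those tested, of which 1643 (11.2%) were higher and 1058 (7.22%) lower in luminal cells. The median difference over all genes was 0.09. By at least 2-fold, 1557 genes were higher and 835 lower. Leaving out castrated luminal replicate 1 left 1720 genes, leaving out replicate 2 left 1755, and leaving out replicate 3 left 1788. The fit that lacked castrated basal replicate 3 called 2211. When each array was instead centred on its own median, the median difference of all genes moved to -0.19 and the split turned to 1125 higher and 1426 lower, so the balance between the directions depended on the scaling.

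The largest differences downward were genes of basal identity. The type II keratin Krt5 had signals of 39.3, 5.89 and 62.7 on the castrated luminal arrays, against 23683, 23582 and 31827 on the castrated basal arrays (-9.16 ± 0.68, adjusted p = 1.42e-07). Its partner keratin Krt14 had signals of 254, 44.5 and 97.8 on the castrated luminal arrays, against 25650.0, 30376 and 32813 on the castrated basal arrays (-7.90 ± 0.48, adjusted p = 1.82e-08). On both, the arrays of the 2 cell types lay far apart. Trp63, the gene of p63, which specifies stratified and basal epithelia, had signals of 53.4, 7.78 and 23.7 on the castrated luminal arrays, against 9736, 7836 and 12963 on the castrated basal arrays (-7.95 ± 0.43, adjusted p = 4.23e-09), and the zinc-finger factor Snai2 had signals of 31.5, 50.7 and 51 on the castrated luminal arrays, against 13530.0, 12204 and 18646 on the castrated basal arrays (-7.93 ± 0.41, adjusted p = 3.17e-09). Of 23 measured basal identity genes, 20 were lower in luminal cells, 1 was higher and 2 did not pass, with a median difference of -3.11 against 0.09 over all genes. The 20 include Itga6, the gene of the gate protein CD49f, which is no finding. The lower ones included Krt15 (-3.11 ± 0.28), Krt17 (-5.01 ± 0.42), the water and glycerol channel Aqp3 (-6.35 ± 0.56), the low-affinity neurotrophin receptor Ngfr (-4.77 ± 0.73), the cell cycle brake Sfn (-3.19 ± 0.31) and the alarmin Il33 (-2.70 ± 0.58). The exception was Cd44, a hyaluronan receptor often used to mark basal and progenitor cells. Its signals were 5347, 5785 and 6618 on the castrated luminal arrays, against 2243, 2128 and 1232 on the castrated basal arrays, higher in luminal cells with no overlap (1.70 ± 0.33, adjusted p = 0.00143). In intact mice, Cd44 differed by -0.67 ± 0.33 (adjusted p = 0.172), and the difference of 2.37 ± 0.46 between castrated and intact mice passed (adjusted p = 0.017), though it was lost without 1 array in 3 cases (without castrated luminal replicate 1, 2 or 3, at 2.29 to 2.44).

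Other genes among the 12 largest falls were podoplanin, Pdpn (-7.90 ± 0.40), the collagen-binding proteoglycan fibromodulin, Fmod (-7.74 ± 0.91), the receptor tyrosine kinase Axl (-6.91 ± 0.70), Moxd1 (-6.90 ± 0.68), the cell adhesion protein Tenm2 (-6.59 ± 0.57), Elobl (-6.50 ± 0.61), the G protein regulator Rgs12 (-6.48 ± 0.93) and Col17a1 (-6.46 ± 0.58). Fmod signals were 126, 141 and 3.57 on the castrated luminal arrays, against 16178, 18562 and 14130.0 on the castrated basal arrays. Pdpn signals were 83.8, 62.4 and 27.8 on the castrated luminal arrays, against 14468, 16128 and 19804 on the castrated basal arrays.

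Luminal identity genes were higher in luminal cells, by smaller margins. Of 19 measured members, 11 were higher, 1 was lower and 7 did not pass, with a median of 0.90. Epcam, of the gate, is among the 7. The surface peptidase Dpp4, also called CD26, had signals of 1918, 1957 and 1787 on the castrated luminal arrays, against 35.9, 1.56 and 2.67 on the castrated basal arrays (6.21 ± 0.57, adjusted p = 1.06e-06). Prom1, the apical membrane protein CD133, had signals of 11874, 13755 and 10010.0 on the castrated luminal arrays, against 568, 255 and 779 on the castrated basal arrays (4.56 ± 0.42, adjusted p = 1.06e-06). Both separated the groups with no overlap. Hoxb13, a homeobox factor of the prostate lineage, had signals of 2146, 1168 and 1546 on the castrated luminal arrays, against 168, 394 and 102 on the castrated basal arrays (2.94 ± 0.48, adjusted p = 0.000341), and Gata2, a partner of the androgen receptor at its enhancers, was also higher (2.69 ± 0.36). The sodium-potassium-chloride cotransporter Slc12a2 (3.30 ± 0.49), the complement inhibitor Cd55 (2.23 ± 0.54) and Cd24a (0.73 ± 0.13) followed. Foxa1, the pioneer factor of luminal prostate cells, had signals of 4045, 4151 and 3853 on the castrated luminal arrays, against 5462, 9317 and 6635 on the castrated basal arrays, and was lower in luminal cells (-0.79 ± 0.23, adjusted p = 0.0249). That call was lost without 1 array in 4 of 12 cases (without castrated luminal replicate 1, 2 or 3 or castrated basal replicate 2, at -0.82 to -0.58).

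**Figure D1:**
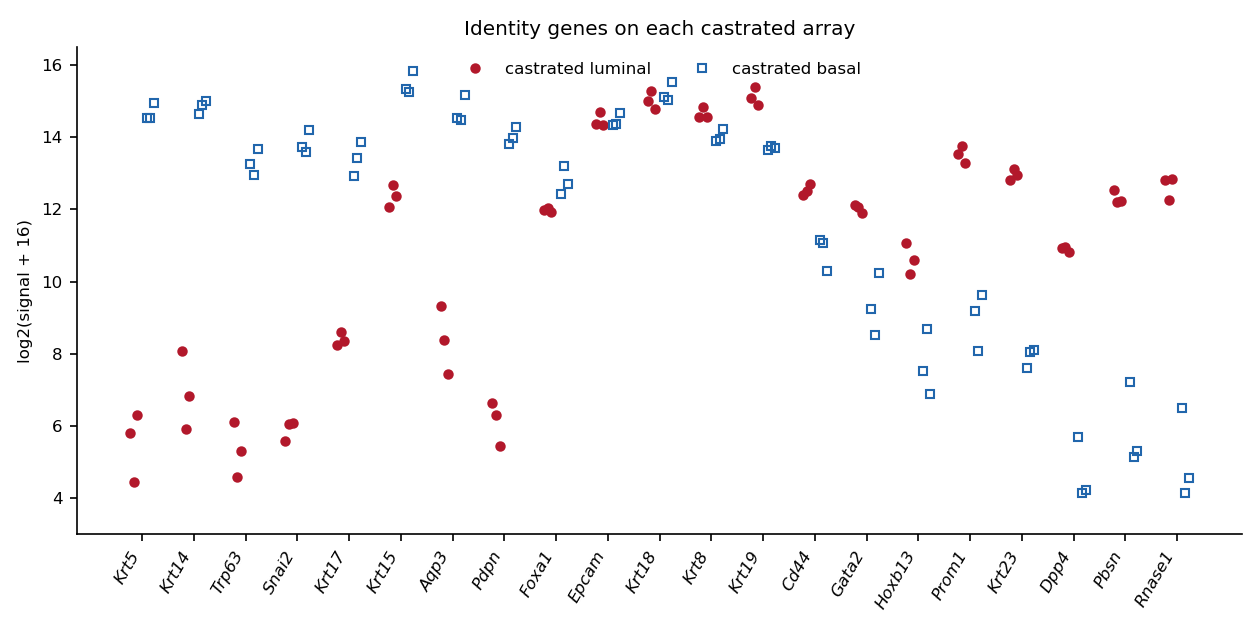
Signal of basal and luminal identity genes on each castrated array, as log2 of signal plus 16, with castrated luminal arrays as filled circles and castrated basal arrays as open squares. For Krt5, Krt14, Trp63 and Snai2 the basal squares lie at 7836 signal units or more while the luminal circles lie at 254 or less, and for Krt18 and Epcam the 2 groups overlap.

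Keratins lay on both sides. Krt8, a keratin of simple epithelia, had signals of 24271, 28991 and 24004 on the castrated luminal arrays, against 15305, 15719 and 19293 on the castrated basal arrays (0.62 ± 0.17, adjusted p = 0.0148). Its call was lost under median centring and without 1 array in 3 cases (without castrated luminal replicate 2 or castrated basal replicate 1 or 2, at 0.53 to 0.58). The partner of Krt8, Krt18, had signals of 32702, 40003 and 28227 on the castrated luminal arrays, against 35676, 33233 and 47342 on the castrated basal arrays, with overlap (-0.20 ± 0.16, adjusted p = 0.416), and its difference turned positive under quantile normalization. Krt19, found in luminal and intermediate cells, was higher (1.43 ± 0.18, adjusted p = 2.94e-05). Krt23, a type I keratin, showed the widest gap upward, with signals of 7205, 8923 and 7887 on the castrated luminal arrays, against 177, 246 and 259.9 on the castrated basal arrays (5.05 ± 0.44, adjusted p = 7.2e-07). Of 17 keratins measured, 3 were higher, 6 lower and 8 did not pass. Krt13 (-4.32 ± 0.92) and Krt16 (-2.72 ± 0.60) were lower in luminal cells, whereas the wound keratin Krt6a differed by 2.31 ± 0.88 (adjusted p = 0.0795) and Krt4, a keratin of proximal luminal cells, by 0.97 ± 0.66 (adjusted p = 0.353).

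The upstream stretches of 4 of these keratin genes are shown because they bracket the comparison, Krt5 and Krt14 far lower and Krt8 and Krt23 higher in luminal cells. Each is the 150 bases before the RefSeq start site on the minus strand of GRCm38.p6, written 5′ to 3′, at chr15:101712906-101713055 for Krt5, chr11:100206031-100206180 for Krt14, chr15:102004343-102004492 for Krt8 and chr11:99493121-99493270 for Krt23. Capitals mark CATGCCC, which holds the CATG core of sites bound by the p53 family, to which p63 belongs. These letters were chosen after the Krt5 and Krt14 stretches had been read.
Krt5: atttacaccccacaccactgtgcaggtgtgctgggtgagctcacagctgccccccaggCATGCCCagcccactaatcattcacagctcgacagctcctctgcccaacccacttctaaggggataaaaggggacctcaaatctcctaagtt
Krt14: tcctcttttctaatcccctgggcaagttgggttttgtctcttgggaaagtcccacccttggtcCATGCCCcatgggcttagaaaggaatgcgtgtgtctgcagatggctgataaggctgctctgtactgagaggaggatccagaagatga
Krt8: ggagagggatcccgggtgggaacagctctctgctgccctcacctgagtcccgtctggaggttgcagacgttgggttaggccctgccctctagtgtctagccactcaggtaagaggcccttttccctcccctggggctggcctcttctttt
Krt23: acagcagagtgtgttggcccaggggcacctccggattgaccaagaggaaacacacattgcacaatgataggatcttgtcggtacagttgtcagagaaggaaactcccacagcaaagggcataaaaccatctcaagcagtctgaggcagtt
On either strand, CATGCCC lay within 150 bases before the start of 1.96% of 32851 promoters. It was found once in Krt5, beginning 92 bases before the start, and once in Krt14, beginning 87 bases before it. In Krt8 and Krt23 these letters were not in the window, and none of the 4 windows held TATAAA (7.57% of promoters) or the AP-1 letters TGANTCA (4.24% of promoters).

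Genes that anchor epithelium to the basement membrane were lower in luminal cells. Of 31 measured hemidesmosome and basement membrane genes, 0 were higher, 17 lower and 14 did not pass (median -1.12). Col17a1, the transmembrane collagen of hemidesmosomes, had signals of 23.1, 135 and 86.9 on the castrated luminal arrays, against 6128, 6408 and 10563 on the castrated basal arrays (-6.46 ± 0.58, adjusted p = 9.91e-07). Itgb4, the integrin chain that pairs with CD49f in hemidesmosomes, was lower (-2.72 ± 0.52, adjusted p = 0.00125). The laminin-332 chain Lamb3 (-4.43 ± 0.60) was lower with the type IV collagens Col4a1 (-5.71 ± 0.41) and Col4a2 (-3.94 ± 0.62), the linker Nid1 (-3.59 ± 0.75) and Lamb1 (-3.34 ± 0.62). Col4a1 had signals of 123, 32.4 and 56.9 on the castrated luminal arrays, against 3634, 4189.8 and 4537 on the castrated basal arrays. The integrin chains Itga3 (-2.13 ± 0.29) and Itgb1 (-1.42 ± 0.25), which form a laminin receptor, were lower by less. Plec, the plakin of the same plaque, differed by -0.24 ± 0.25 (adjusted p = 0.546).

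Tight junction and apical polarity genes ran the other way: of 33 measured, 19 were higher, 3 lower and 11 did not pass (median 1.53), with 1 lower without castrated luminal replicate 1 or 2. Claudins, the strand-forming proteins that set the permeability of the junction, differed in kind. The pore-forming Cldn2 had signals of 2024, 1678 and 796 on the castrated luminal arrays, against 3.82, 1.4 and 65 on the castrated basal arrays (5.54 ± 0.66, adjusted p = 1.7e-05), and Cldn8 had signals of 1477, 1353 and 1517 on the castrated luminal arrays, against 129, 121 and 1.56 on the castrated basal arrays (4.38 ± 0.64, adjusted p = 0.000129). Cldn3 (4.25 ± 0.52), Cldn10 (3.29 ± 0.68) and Cldn7 (1.96 ± 0.26) were higher too. The barrier claudin Cldn1 was lower, with signals of 593, 446 and 176 on the castrated luminal arrays, against 3487, 4911 and 6212 on the castrated basal arrays (-3.65 ± 0.39, adjusted p = 4.45e-06), and Cldn4 differed by -0.23 ± 0.22 (adjusted p = 0.531). The junction plaque protein Cgn (3.90 ± 0.48), the tetraspan proteins Ocln (1.72 ± 0.25) and Marveld2 (1.27 ± 0.32), and the polarity proteins Crb3 (2.87 ± 0.48) and Pard6b (1.40 ± 0.26) were higher, and the Crb3 call was lost when probe sets were averaged (1.45, adjusted p = 0.0616). The recycling endosome genes Rab25 (2.12 ± 0.45) and Rab11fip1 (2.91 ± 0.42) were higher beside them.

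Desmosomal genes lay on both sides: of 18 desmosome and adherens junction genes, 2 were higher, 6 lower and 10 did not pass. The lower ones numbered 3 without castrated luminal replicate 2 or 3 or castrated basal replicate 1. Among the plakophilins, which link desmosomal cadherins to the plaque, Pkp2 had signals of 2141, 2008 and 2048 on the castrated luminal arrays, against 68.7, 93.7 and 12 on the castrated basal arrays (5.03 ± 0.57, adjusted p = 1.1e-05), and Pkp1 had signals of 200.2, 151 and 103 on the castrated luminal arrays, against 1892, 1485 and 2243 on the castrated basal arrays (-3.52 ± 0.40, adjusted p = 9.11e-06). Among the desmocollins, Dsc2 was higher (2.12 ± 0.44) and Dsc3 lower (-2.69 ± 0.75), and the Dsc3 call was lost without 1 array in 5 cases (without castrated luminal replicate 1, 2 or 3 or castrated basal replicate 1 or 2, at -2.74 to -2.38). The classical cadherin Cdh3 (P-cadherin) was lower (-2.16 ± 0.56, adjusted p = 0.0122), with the call lost without 1 array in 3 cases (without castrated luminal replicate 2 or 3 or castrated basal replicate 1, at -2.07 to -1.94), and Cdh1 (E-cadherin) differed by 0.39 ± 0.18 (adjusted p = 0.154).

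Genes listed as secretory products of the prostate were higher in luminal cells where they differed, with 1 exception, an enzyme of the Golgi. Rnase1, a secreted ribonuclease, showed the largest rise by the naming rule, with signals of 7151, 4877 and 7312 on the castrated luminal arrays, against 73.8, 1.49 and 7.45 on the castrated basal arrays (7.58 ± 0.61, adjusted p = 3.79e-07). Pbsn, the androgen-dependent secreted protein probasin, had signals of 5953, 4689.9 and 4837 on the castrated luminal arrays, against 134, 19.1 and 23.2 on the castrated basal arrays (6.45 ± 0.44, adjusted p = 6.47e-08). In intact mice, Pbsn signals were 57928, 56237 and 70160.0 on luminal arrays, against 9468, 4705 and 12419 on basal arrays (2.89 ± 0.44, adjusted p = 0.000182), and the luminal minus basal difference was larger after castration (3.55 ± 0.62, adjusted p = 0.00906). Of 26 measured genes listed as prostatic secretory products, 12 were higher, 1 was lower and 13 did not pass (median 1.35). In intact mice, 23 were higher and 0 lower (median 3.58), where 11.0% of all genes were higher and 8.45% lower. The change passed for 4, with 1 positive, Pbsn, and 3 negative, Pate14 and Man1a among them. The member lower in castrated luminal than in castrated basal cells was Man1a (-0.94 ± 0.29, adjusted p = 0.0302), a Golgi mannosidase that trims sugar chains. Its call was lost without 1 array in 4 cases (without castrated luminal replicate 2 or 3 or castrated basal replicate 1 or 2, at -0.88 to -0.70). The matrix protease Mmp7 (5.85 ± 0.54), Ceacam2 (5.27 ± 0.70), the zinc-binding glycoprotein Azgp1 (4.48 ± 0.52) and the protease inhibitor Wfdc15b (4.17 ± 0.60) were among those higher in castrated luminal than in castrated basal cells. Msmb, the prostatic microseminoprotein, had signals of 26.7, 51 and 45.4 on the castrated luminal arrays, against 2.94, 7.36 and 8.32 on the castrated basal arrays (1.34 ± 0.93, adjusted p = 0.356), and was dim on every castrated basal array.

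The 250 bases before the RefSeq start of Pbsn on the minus strand of GRCm38.p6 (chrX:77853501-77853750) are shown because androgen regulation of this promoter is its best-known property. Capitals mark AGAACA, a half-site of the element that the androgen and glucocorticoid receptors bind, and TATAAA.
Pbsn: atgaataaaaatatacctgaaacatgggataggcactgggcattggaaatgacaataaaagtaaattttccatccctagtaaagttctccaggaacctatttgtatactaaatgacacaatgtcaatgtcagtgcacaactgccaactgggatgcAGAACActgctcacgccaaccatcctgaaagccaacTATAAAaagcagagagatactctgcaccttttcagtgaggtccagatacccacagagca
AGAACA, or TGTTCT on the other strand, lay in this window in 16.1% of promoters, and in Pbsn began 95 bases before the start. TATAAA was held by 12.4% of promoters, and in Pbsn it began 59 bases before the start.

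Seminal vesicle secretory genes, which the prostate itself is also known to express in part, were split. Svs4 had signals of 2715, 3423 and 994 on the castrated luminal arrays, against 1.1, 2.16 and 14.3 on the castrated basal arrays (6.65 ± 0.64, adjusted p = 1.79e-06), and Svs2 had signals of 5315, 6135 and 2712 on the castrated luminal arrays, against 224, 21 and 10.4 on the castrated basal arrays (6.18 ± 0.57, adjusted p = 1.06e-06). Svs6 had signals of 3.07, 16.3 and 20.1 on the castrated luminal arrays, against 3.56, 45.3 and 3.63 on the castrated basal arrays (-0.03 ± 0.89, adjusted p = 0.988), with overlap. Of 8 measured, 4 were higher and 4 did not pass after castration, against 8 higher in intact mice. The change passed for 4, with 1 positive, Svs2, and 3 negative, Svs3a and Svs6 among them. When probe sets were averaged, the change of Svs2 was 0.50 and did not pass (adjusted p = 0.796). Summed over the list, signals ran from 21244 to 40367 on castrated luminal, 3617 to 5349 on castrated basal, 238780.0 to 396920.0 on intact luminal and 27371 to 43050.0 on intact basal arrays. Whether seminal vesicle tissue contributed to any array was not tested.

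Genes that fold and export secreted proteins lay mostly on the luminal side where they differed. Of 58 measured genes of the endoplasmic reticulum and secretory transport, 26 were higher, 2 lower and 30 did not pass (median 0.97). In intact mice 39 were higher and 1 was lower (median 1.45), and the change passed for 4, all negative, Ddit3 among them. The disulfide isomerase Agr2 had signals of 1296, 811 and 899 on the castrated luminal arrays, against 56.7, 142 and 4.03 on the castrated basal arrays (4.03 ± 0.58, adjusted p = 0.000102), and the cargo adaptor Tmed3 had signals of 7884, 7502 and 3843 on the castrated luminal arrays, against 314, 469.9 and 456 on the castrated basal arrays (3.85 ± 0.34, adjusted p = 8.62e-07). The signal peptidase subunits Sec11c (3.26 ± 0.37), Spcs2 (1.65 ± 0.23) and Spcs3 (1.64 ± 0.27), the isomerases Pdia4 (2.53 ± 0.40) and Pdia6 (2.02 ± 0.34), and the chaperone cofactors Creld2 (2.34 ± 0.35) and Dnajc3 (1.85 ± 0.23) were higher, as was Xbp1 (1.54 ± 0.32), a transcription factor of the unfolded protein response. When the probe sets of a gene were averaged, the calls of Pdia4 (1.28, adjusted p = 0.0826) and Pdia6 (0.79, adjusted p = 0.197) were lost. The 2 lower members were Atf4 (-0.61 ± 0.14), a stress-induced factor whose call was lost under quantile normalization, and Ddit3 (-1.59 ± 0.33, adjusted p = 0.00256), its target known as CHOP. Ddit3 differed by 0.81 ± 0.33 in intact mice, and the difference between the comparisons passed (-2.40 ± 0.47, adjusted p = 0.017), except without 1 array in 2 cases (without castrated luminal replicate 1 or 3, at -2.41 to -2.27). The chaperone Hspa5 (BiP) had signals of 12331, 18615 and 10454 on the castrated luminal arrays, against 17884, 16667 and 17450.0 on the castrated basal arrays (-0.37 ± 0.19, adjusted p = 0.2), with overlap.

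Regulators of the androgen axis showed little common direction: of 21 measured, 3 were higher, 3 lower and 15 did not pass. Fkbp5, a receptor target and co-chaperone, had signals of 472, 329 and 616 on the castrated luminal arrays, against 524, 917 and 470.4 on the castrated basal arrays (-0.40 ± 0.42, adjusted p = 0.561), with overlap. The peroxisomal steroid and fatty acid enzyme Hsd17b4 was higher (1.82 ± 0.35), and the clock gene Per1 (-2.13 ± 0.41) and the receptor coactivator Ncoa4 (-1.04 ± 0.25) lower. Of 49 lineage transcription factors, 6 were higher, 16 lower and 27 did not pass, and 3 were higher without castrated luminal replicate 2 or 3. Beside Hoxb13 and Gata2, the ETS factor Elf5 was higher, with signals of 1329, 1001 and 296 on the castrated luminal arrays, against 24.6, 3.42 and 43 on the castrated basal arrays (4.39 ± 0.59, adjusted p = 6.05e-05). Beside Trp63 and Snai2, Hoxd10 (-2.74 ± 0.50), Hoxd13 (-1.58 ± 0.30), Tfap2a (-1.95 ± 0.32), Tfap2c (-1.30 ± 0.29), Runx1 (-1.18 ± 0.29) and Klf4 (-1.33 ± 0.19) were lower.

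Genes reported in proximal or castration-resistant luminal cells were mixed: of 23 measured, 9 were higher, 3 lower and 11 did not pass (median 1.13). The median was 0.47 without castrated basal replicate 3. Without castrated luminal replicate 2, 5 were higher and 1 lower, and 1 was also lower without castrated luminal replicate 1 or castrated basal replicate 1. Basp1, a membrane-bound signalling protein, had signals of 7524, 6608 and 8123 on the castrated luminal arrays, against 382, 264 and 169 on the castrated basal arrays (4.76 ± 0.42, adjusted p = 7.35e-07). Ppp1r1b (4.05 ± 0.70), the iron-binding secreted protein Ltf (3.90 ± 0.72) and the secreted chaperone Clu (1.26 ± 0.23) were higher. Psca, the prostate stem cell antigen, had signals of 4816, 4999 and 4219.7 on the castrated luminal arrays, against 689, 2156 and 31 on the castrated basal arrays (3.49 ± 1.16, adjusted p = 0.0445), and its call was lost without 1 array in 7 of 12 cases (without castrated luminal replicate 1, 2 or 3, castrated basal replicate 1 or 3 or intact luminal replicate 1 or 2, at 1.92 to 3.87). Ly6d had a difference of -1.32 ± 0.63 (adjusted p = 0.167).

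**Figure D2:**
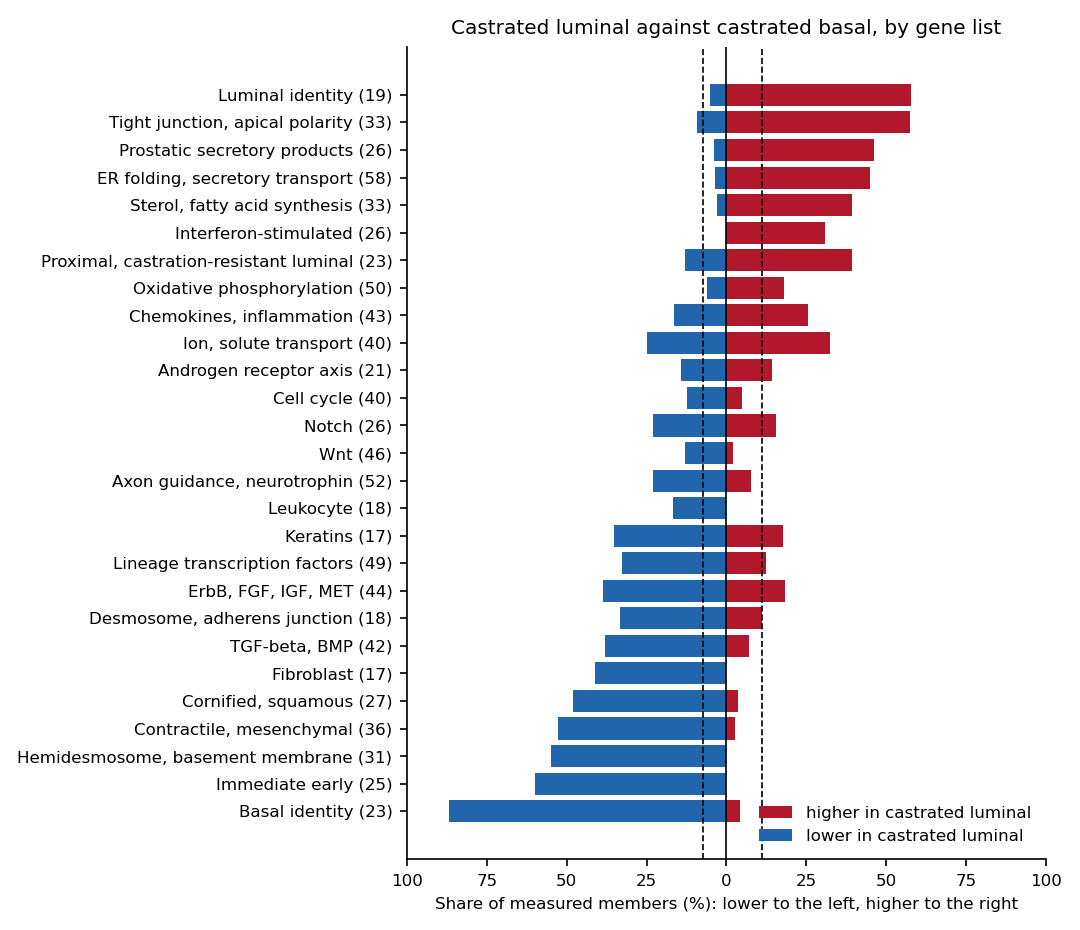
Share of the measured members of each gene list that were higher (right) or lower (left) in castrated luminal than in castrated basal cells, in percent, with the number of measured members beside each name. Dashed lines mark the shares over all genes, 11.2% higher and 7.22% lower, and the basal identity, hemidesmosome and immediate early lists reach far past the left line.

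Signalling genes differed in both directions. In the Notch pathway, in which ligands on 1 cell activate receptors on its neighbour, the ligands lay on the basal side. Jag2 had signals of 92.9, 44.4 and 136 on the castrated luminal arrays, against 3223, 2517 and 4650.1 on the castrated basal arrays (-5.07 ± 0.47, adjusted p = 1.06e-06), Dll1 had signals of 233, 284 and 205 on the castrated luminal arrays, against 7383, 7739 and 7854 on the castrated basal arrays (-4.91 ± 0.63, adjusted p = 3.18e-05), and Jag1 was lower as well (-4.02 ± 0.41, adjusted p = 2.83e-06). On the luminal side stood Dtx1, a ubiquitin ligase that binds Notch, with signals of 1152, 1989.6 and 2291 on the castrated luminal arrays, against 67.1, 2.3 and 23.5 on the castrated basal arrays (5.49 ± 0.64, adjusted p = 1.23e-05), and its relative Dtx4 (4.11 ± 0.88). The target gene Heyl (2.29 ± 0.62) and the receptor-cleaving protease Adam10 (1.28 ± 0.29) were higher, and the receptor Notch1 (-0.85 ± 0.28) and the inhibitor Numb (-1.15 ± 0.26) lower. These last 4 calls were lost when the probe sets of a gene were averaged. The Heyl call was lost without 1 array in 3 cases (without castrated luminal replicate 2 or 3 or castrated basal replicate 1, at 1.89 to 2.27), and the Notch1 call in 7 (without castrated luminal replicate 1, 2 or 3, castrated basal replicate 1, 2 or 3 or intact luminal replicate 2, at -0.97 to -0.70). With the replicate number as a block, Notch1 had an adjusted p of 0.0596. Of 26 Notch genes measured, 4 were higher, 6 lower and 16 did not pass, among them the receptor Notch2 (-0.68 ± 0.32, adjusted p = 0.158).

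ErbB receptors and their ligands were divided between the cell types. The ligand betacellulin, Btc, had signals of 1358, 997 and 1298 on the castrated luminal arrays, against 22.2, 1.18 and 33 on the castrated basal arrays (5.27 ± 0.69, adjusted p = 4e-05), and the ligand Egf was higher too (3.01 ± 0.62, adjusted p = 0.00243). The ligand Hbegf was lower in luminal cells (-1.50 ± 0.18). Of the receptors, Erbb2 (2.16 ± 0.47) and Erbb3 (2.13 ± 0.43) were higher and Egfr lower, with signals of 484, 325 and 754 on the castrated luminal arrays, against 2038, 2519.8 and 1371 on the castrated basal arrays (-1.93 ± 0.65, adjusted p = 0.047). The Egfr call was lost without 1 array in 8 of 12 cases (without castrated luminal replicate 1, 2 or 3, castrated basal replicate 1, 2 or 3, intact luminal replicate 2 or intact basal replicate 1, at -2.23 to -1.64), and with the replicate number as a block its adjusted p was 0.0577. In the fibroblast growth factor branch, the receptors Fgfr1 (-2.91 ± 0.46) and Fgfr2 (-2.16 ± 0.21) and the feedback inhibitors Spry2 (-1.86 ± 0.46) and Spry4 (-4.26 ± 0.49) were lower. Hgf, the ligand of the receptor Met, was lower (-3.07 ± 0.52, adjusted p = 0.00045), while Met itself differed by 0.29 ± 0.26 (adjusted p = 0.492). Proteins that act on Hgf activation stood on the luminal side, namely the protease St14 (2.27 ± 0.24) and the inhibitors Spint1 (2.50 ± 0.27) and Spint2 (1.16 ± 0.24). Of the insulin-like growth factor genes, those named here were lower, namely the receptor Igf1r (-1.51 ± 0.26), the adaptor Irs2 (-3.58 ± 0.36) and the binding proteins Igfbp2 (-3.97 ± 0.72), Igfbp4 (-5.04 ± 0.53) and Igfbp5 (-2.51 ± 0.35). Igfbp4 had signals of 97.4, 35.6 and 60.2 on the castrated luminal arrays, against 2449.9, 2917 and 2169.6 on the castrated basal arrays. In intact mice, Igfbp4 differed by -0.65 ± 0.53, and the difference between the comparisons passed (-4.38 ± 0.74, adjusted p = 0.00732). Over these receptor families, 8 of 44 genes were higher, 17 lower and 19 did not pass (median -0.49). That median was -0.30 without castrated luminal replicate 2 or castrated basal replicate 1, -0.24 without castrated basal replicate 2 and -0.88 without castrated basal replicate 3.

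**Figure D3:**
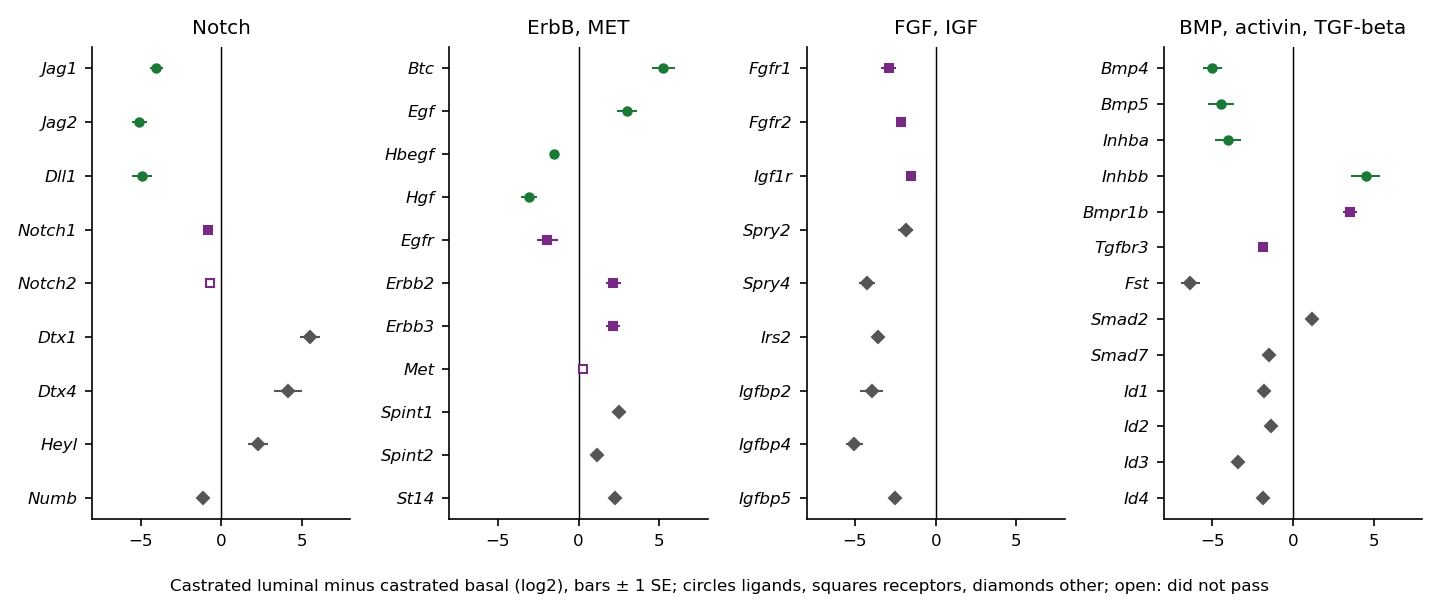
Difference between castrated luminal and castrated basal cells for ligands, receptors and downstream or binding proteins of 4 signalling families, in log2 units, with bars of 1 standard error and filled symbols for genes that passed. Jag1, Jag2, Dll1, Bmp4 and Bmp5 lie left of 0, while ErbB ligands and receptors lie on both sides.

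In the TGF-beta and bone morphogenetic protein (BMP) families, 16 of 42 measured genes were lower in luminal cells, 3 were higher and 23 did not pass (median -1.07). The BMP ligand Bmp4 had signals of 1.4, 1.33 and 22 on the castrated luminal arrays, against 1009, 613 and 547 on the castrated basal arrays (-4.98 ± 0.59, adjusted p = 1.64e-05), and its relative Bmp5 had signals of 3.13, 1.79 and 0.88 on the castrated luminal arrays, against 426, 585 and 220.0 on the castrated basal arrays (-4.47 ± 0.80, adjusted p = 0.000759). Both were dim on every luminal array, so the size of these folds depends on the constant added. With 1 added in place of 16, another probe set of Bmp5 was the brightest and stood for the gene, without passing (-0.63, adjusted p = 0.716). With 16 added, the other Bmp5 probe sets differed by -1.63 (adjusted p = 0.0859) and -0.49 (adjusted p = 0.68), without passing. All 4 ID genes, which are induced by BMP signalling and block basic helix-loop-helix factors, were lower: Id1 (-1.81 ± 0.28), Id2 (-1.37 ± 0.29), Id3 (-3.41 ± 0.25) and Id4 (-1.84 ± 0.17). The activin antagonist follistatin, Fst, had signals of 55.7, 62.3 and 9.22 on the castrated luminal arrays, against 3311, 3831 and 6000.1 on the castrated basal arrays (-6.35 ± 0.61, adjusted p = 1.58e-06). Of the activin subunits it binds, Inhba was lower (-4.01 ± 0.82, adjusted p = 0.00217) and Inhbb higher, with signals of 1279.9, 1446 and 1552 on the castrated luminal arrays, against 88.6, 74 and 11.2 on the castrated basal arrays (4.50 ± 0.89, adjusted p = 0.00177). The receptor Bmpr1b (3.53 ± 0.46) and the signal transducer Smad2 (1.19 ± 0.35) were the other members that were higher, the last losing its call without 1 array in 5 cases (without castrated luminal replicate 1, 2 or 3 or castrated basal replicate 1 or 3, at 0.90 to 1.25). The latent TGF-beta activator Thbs1 (-0.87 ± 0.19), the co-receptor Tgfbr3 (-1.84 ± 0.30) and the inhibitor Smad7 (-1.50 ± 0.38) were lower.

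Of 46 Wnt pathway genes, 1 was higher, 6 lower and 39 did not pass, so that 15.2% were called, against 18.4% of all genes. Without castrated luminal replicate 1, 3 were lower. The frizzled receptor Fzd1 (-1.91 ± 0.33), the receptor tyrosine kinase Ror1 (-2.74 ± 0.62) and the secreted Dkk3 (-2.33 ± 0.56) were lower, and the R-spondin receptor Lgr4 was higher (1.41 ± 0.35, adjusted p = 0.00856). Lgr4 lost its call without castrated luminal replicate 3 (1.26). Of 52 axon guidance and neurotrophin genes, 4 were higher, 12 lower and 36 did not pass (median -0.67). Without castrated luminal replicate 1, 2 or 3, 2 were higher, and without replicate 3, 7 were lower. The secreted guidance cue Slit3 (-3.27 ± 0.79) and its receptor Robo1 (-2.27 ± 0.44), the netrin receptor Unc5b (-2.20 ± 0.36) and the ephrin receptor Epha2 (-1.97 ± 0.38) were lower. The class 4 semaphorins Sema4a (2.07 ± 0.39) and Sema4d (2.93 ± 0.56) were higher, and the semaphorin receptor Plxnb1 was lower (-1.74 ± 0.40). The Sema4d call was lost when probe sets were averaged.

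Contractile and mesenchymal genes were lower in luminal cells: of 36 measured, 1 was higher, 19 lower and 16 did not pass (median -1.41). Smoothelin, Smtn, had signals of 15.6, 28 and 51.1 on the castrated luminal arrays, against 2487, 3639 and 3114 on the castrated basal arrays (-6.08 ± 0.48, adjusted p = 2.86e-07), and the tropomyosin Tpm2 had signals of 727, 1038 and 939 on the castrated luminal arrays, against 12090.0, 16404 and 14877 on the castrated basal arrays (-3.98 ± 0.27, adjusted p = 6.47e-08). The calponin Cnn2 (-2.15 ± 0.27), the filamin Flna (-1.52 ± 0.27), Mylk (-2.41 ± 0.50), Myl9 (-3.11 ± 0.58), and Cald1 (-2.73 ± 0.55) were lower. The smooth muscle actin Acta2 did not pass (-1.51 ± 0.80, adjusted p = 0.216). Fibroblast markers lay the same way. Decorin, Dcn, a collagen-binding proteoglycan, had signals of 463, 468 and 267 on the castrated luminal arrays, against 21299, 19295 and 25683 on the castrated basal arrays (-5.77 ± 0.25, adjusted p = 3.26e-10). A pair of probe sets read this gene, and the other one differed by 0.01 (adjusted p = 0.992). Of 17 fibroblast genes, 0 were higher, 7 lower (4 without castrated luminal replicate 2) and 10 did not pass, and their summed signal was 909 to 1207 on castrated luminal arrays and 25839 to 30926 on castrated basal arrays. Dcn alone made up most of each basal sum, at 19295 to 25683. Sparc (-4.82 ± 0.54), Bgn (-3.83 ± 0.52) and Mgp (-3.37 ± 0.43) were lower. The collagen genes of fibroblasts were also measured. Col1a1 had signals of 5.95, 33.9 and 29.3 on the castrated luminal arrays, against 132, 157 and 4.25 on the castrated basal arrays, and Col1a2 had signals of 59.8, 38.2 and 19 on the castrated luminal arrays, against 78.5, 255 and 52.3 on the castrated basal arrays, both with overlap. Pdgfra, a receptor of fibroblasts, had signals of 31.2, 19 and 16 on the castrated luminal arrays, against 94.5, 34.9 and 31.6 on the castrated basal arrays. Pdgfra did not pass (-0.78), and it was dim on every castrated luminal array and on castrated basal replicates 2 and 3. The smooth muscle list summed to 237 to 473 on castrated luminal and 1186 to 2466 on castrated basal arrays, with 2 of 8 genes lower. The part of fibroblasts or smooth muscle in these results was not tested.

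Metabolic genes differed by branch. Of 33 sterol and fatty acid synthesis genes, 13 were higher, 1 was lower and 19 did not pass (median 1.31), against 4 higher and 6 lower in intact mice. The change between them passed for 5, all positive, the 4 given next among them. Cyp51, the lanosterol demethylase, had signals of 4883, 4463 and 5994 on the castrated luminal arrays, against 749, 1767 and 1695 on the castrated basal arrays (1.94 ± 0.32, adjusted p = 0.000407). On intact arrays the signals of Cyp51 were 2494, 2279.9 and 1510.2 in luminal cells, against 4396, 3731 and 4922 in basal cells (-1.07 ± 0.32, adjusted p = 0.0267), so the direction was opposite (3.01 ± 0.46 for the change in difference, adjusted p = 0.00374). The squalene epoxidase Sqle (1.89 ± 0.40 in castrated, -1.43 ± 0.40 in intact mice, adjusted p = 0.00742 for the change) and Insig1, a sterol-responsive regulator (1.35 ± 0.33 in castrated, -1.43 ± 0.33 in intact mice, adjusted p = 0.00732 for the change), turned likewise. Hmgcs1, an enzyme early in the same pathway (0.37 ± 0.24 in castrated, -2.05 ± 0.24 in intact mice, adjusted p = 0.00269 for the change), also passed for the change, without a call in castrated mice. Scd2 (1.83 ± 0.23), Dhcr7 (4.40 ± 0.73) and Fdps (2.95 ± 0.67) were higher in castrated luminal than in castrated basal cells. The lower member was the fatty acid desaturase Fads1, with signals of 376, 827 and 231 on the castrated luminal arrays, against 9754, 8241 and 9883 on the castrated basal arrays (-4.42 ± 0.40, adjusted p = 1.06e-06).

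Of 23 genes of glycolysis, the pentose phosphate pathway and their transporters, 5 were higher, 4 lower and 14 did not pass, and without castrated luminal replicate 1, 3 were higher. All 4 lower ones are named here. The glucose transporter Slc2a1 had signals of 13589, 16008 and 14138 on the castrated luminal arrays, against 29869, 29561 and 38365 on the castrated basal arrays (-1.15 ± 0.14, adjusted p = 2.79e-05), and the monocarboxylate transporter Slc16a1, which carries lactate, had signals of 170.4, 98 and 167 on the castrated luminal arrays, against 4314, 3377 and 5294 on the castrated basal arrays (-4.76 ± 0.40, adjusted p = 5.39e-07). Hk2 (-1.41 ± 0.27) and Pfkp (-2.35 ± 0.35), which phosphorylate glucose and fructose 6-phosphate, were lower with them. The sodium-coupled glucose transporter Slc5a1, which the list did not hold, was higher (5.98 ± 0.76). The pentose phosphate enzymes Pgd (2.16 ± 0.38) and Rpia (1.42 ± 0.29) were higher. Pdk2, a kinase that restrains pyruvate oxidation, was higher (3.84 ± 0.64, adjusted p = 0.00043). Of 50 oxidative phosphorylation genes, 9 were higher, 3 lower and 38 did not pass, so that 24.0% were called, against 18.4% of all genes. The list median was 0.29, and 0.02 under median centring. In this list Sdha (1.83 ± 0.31), Ndufv2 (1.31 ± 0.26) and Ndufa1 (1.21 ± 0.19) were higher and Atp5g1 lower (-2.52 ± 0.25, adjusted p = 2.37e-06). The lower ones numbered 1 without castrated luminal replicate 1 or 3 or castrated basal replicate 1 or 3, and 5 without castrated basal replicate 2. A pair of aldehyde dehydrogenases that make retinoic acid were divided, Aldh1a3 with signals of 3513, 5948 and 6781 on the castrated luminal arrays, against 202, 539.8 and 132 on the castrated basal arrays (4.32 ± 0.67, adjusted p = 0.000226) and Aldh1a1 with signals of 633, 535 and 538 on the castrated luminal arrays, against 2702, 2519 and 3028 on the castrated basal arrays (-2.24 ± 0.30, adjusted p = 5.23e-05).

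Transporters were likewise divided. Slc39a8, a zinc and manganese importer, had signals of 11929, 11363 and 12680.0 on the castrated luminal arrays, against 942, 1022 and 949 on the castrated basal arrays (3.60 ± 0.31, adjusted p = 7.2e-07), and the amino acid transporters Slc38a1 (4.86 ± 0.44) and Slc6a14 (4.22 ± 0.48), carbonic anhydrase Car2 (4.50 ± 0.48) and the iron exporter Slc40a1 (4.07 ± 0.48) were higher. Slc39a14 (-2.38 ± 0.52), Slc1a5 (-2.19 ± 0.50), Slc38a2 (-1.06 ± 0.22) and Slc3a2 (-1.03 ± 0.22) were lower, the last 3 being amino acid transporters or their partner chain. When probe sets were averaged, the calls of Slc39a14 (-1.22, adjusted p = 0.0949) and Slc1a5 (-0.81, adjusted p = 0.0851) were lost. Over 40 transport genes, 13 were higher, 10 lower and 17 did not pass (median 0.95).

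Inflammatory genes lay on both sides. Of 43 measured, 11 were higher, 7 lower and 25 did not pass (median 0.36), against 2 higher and 10 lower in intact mice (median -0.61). The median in castrated mice was 0.203 without castrated luminal replicate 2, 0.209 without castrated basal replicate 3 and 0.0912 under median centring. The change between castrated and intact mice passed for 5 members, all positive, and not for the other 38. Among the 5 were Tnfaip2, Cxcl5, Il1rn and Lif. Tnfaip2, a gene induced by tumour necrosis factor, had signals of 3333, 5331 and 4020.2 on the castrated luminal arrays, against 123, 8.07 and 17.9 on the castrated basal arrays (6.43 ± 0.60, adjusted p = 1.24e-06). Its signals were 691, 278 and 290.1 on intact luminal arrays, against 357, 466 and 266 on intact basal arrays, with overlap (0.11 ± 0.60, adjusted p = 0.929), and the change in difference was 6.32 ± 0.85 (adjusted p = 0.00235). On Tnfaip2 every castrated luminal array thus lay above, and every castrated basal array below, all intact arrays. The neutrophil-attracting chemokine Cxcl5 had signals of 1310.3, 1586 and 1770.1 on the castrated luminal arrays, against 54.7, 113 and 87 on the castrated basal arrays (3.99 ± 0.58, adjusted p = 0.000123), with a change in difference of 4.37 ± 0.83 (adjusted p = 0.0137), lost without castrated luminal replicate 3 (4.27). The interleukin 1 antagonist Il1rn (4.17 ± 0.52), Cxcl17 (4.22 ± 0.78), the antibody transporter Pigr (6.10 ± 0.81), the bacterial wall receptor Pglyrp1 (4.21 ± 0.64) and the NF-kB inhibitor Tnfaip3 (2.07 ± 0.30) were higher. On the basal side stood Cxcl14, with signals of 22.7, 41.3 and 13.8 on the castrated luminal arrays, against 2737, 2584 and 3649 on the castrated basal arrays (-6.20 ± 0.61, adjusted p = 2.18e-06), Cxcl12, with signals of 134, 168 and 202 on the castrated luminal arrays, against 3374, 3296 and 2849 on the castrated basal arrays (-4.13 ± 0.73, adjusted p = 0.000653), and Lif (-3.52 ± 0.48), Il6 (-2.85 ± 0.53), Cxcl10 (-1.63 ± 0.24) and Icam1 (-1.62 ± 0.26). Lif had differed by -7.02 ± 0.48 in intact mice, and the change in difference passed (3.50 ± 0.68, adjusted p = 0.0164), except without 1 array (without castrated luminal replicate 1, at 3.37).

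Interferon-stimulated genes had 8 of 26 members higher, 0 lower and 18 not passing (median 1.10, and 0.72 without castrated basal replicate 1). Ifit3 had signals of 2323, 3177 and 1845 on the castrated luminal arrays, against 47.4, 258 and 219 on the castrated basal arrays (3.91 ± 0.87, adjusted p = 0.00431), and Rsad2 had signals of 485, 933 and 466 on the castrated luminal arrays, against 8.8, 3.16 and 51.4 on the castrated basal arrays (4.27 ± 0.93, adjusted p = 0.00356). Xaf1 (3.34 ± 0.71) and the proteasome subunit Psmb9 of the antigen presentation list (4.08 ± 0.77) were higher. Of 22 genes of that list, 3 were higher, 1 was lower and 18 did not pass, so that 18.2% were called, against 18.4% of all genes. In that list 1 was higher without castrated luminal replicate 2 or castrated basal replicate 1, and 5 without castrated luminal replicate 3. Of 18 leukocyte markers measured, 0 were higher, 3 lower and 15 did not pass. That made 16.7% called, all lower, against 18.4% of all genes called and 7.22% lower. The summed signal of the markers was 1418 to 1653 on castrated luminal arrays and 2728 to 4196 on castrated basal arrays. The myeloid genes Tyrobp (-2.85 ± 0.82), Cd68 (-2.64 ± 0.72) and Lyz2 (-2.53 ± 0.59) were the lower ones. The Tyrobp call was lost without 1 array in 5 cases (without castrated luminal replicate 1, 2 or 3 or castrated basal replicate 1 or 2, at -2.99 to -2.53) and the Cd68 call in 2 (without castrated luminal replicate 2 or castrated basal replicate 2, at -2.15 to -1.89). The pan-leukocyte gene Ptprc had signals of 9.22, 12 and 19.6 on the castrated luminal arrays, against 0.594, 2.54 and 89.1 on the castrated basal arrays, with overlap. The part of leukocytes in the basal values was not tested.

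Immediate early genes, which tissue dissociation can induce, were lower in luminal cells: of 25, 0 were higher, 15 lower and 10 did not pass (median -0.77). Egr3 had signals of 105, 119.5 and 132 on the castrated luminal arrays, against 2961, 3029.9 and 2577 on the castrated basal arrays (-4.42 ± 0.38, adjusted p = 7.2e-07). The AP-1 members Fosl1 (-1.87 ± 0.19), Fosl2 (-1.20 ± 0.17) and Fosb (-1.19 ± 0.21) and the nuclear receptors Nr4a1 (-1.44 ± 0.24) and Nr4a2 (-1.83 ± 0.29) were lower, whereas Jun differed by -0.56 ± 0.20 (adjusted p = 0.0554). The part of dissociation in these values was not tested.

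Of 23 regulators of cell death, 4 were higher, 3 lower and 16 did not pass, and 1 was lower without castrated luminal replicate 3. The BCL2 family member Bok had signals of 1165, 936 and 1601 on the castrated luminal arrays, against 64.5, 36.6 and 89.4 on the castrated basal arrays (4.00 ± 0.71, adjusted p = 0.000705), and its relative Bik, which promotes apoptosis, had signals of 1030.2, 670.0 and 954 on the castrated luminal arrays, against 19.4, 17.2 and 67 on the castrated basal arrays (4.27 ± 0.82, adjusted p = 0.00138). The anti-apoptotic Bcl2 was lower, with signals of 2936, 4413 and 3918 on the castrated luminal arrays, against 12160.0, 12173 and 19188 on the castrated basal arrays (-1.93 ± 0.26, adjusted p = 4.81e-05). The initiator caspase Casp8 was higher (1.77 ± 0.40). The cyclin-dependent kinase inhibitor Cdkn1a (-2.46 ± 0.19), the cyclin Ccnd2 (-4.47 ± 0.52), Pcna (-1.32 ± 0.22) and Rrm2 (-2.18 ± 0.35) were lower and Cdkn2b higher (2.69 ± 0.67). Of 40 cell cycle genes, 2 were higher, 5 lower and 33 did not pass, so that 17.5% were called, against 18.4% of all genes. Without castrated luminal replicate 1, 2 or 3 or castrated basal replicate 1 or 2, 1 was higher. The proliferation marker Mki67 did not pass, with signals of 317, 287 and 307 on the castrated luminal arrays, against 184, 197 and 2.41 on the castrated basal arrays (1.79 ± 0.78, adjusted p = 0.126). Genes of stratified and cornified epithelium were lower, 13 of 27 against 1 higher, among them Lor (-3.84 ± 0.63), Anxa8 (-3.52 ± 0.53), Ivl (-3.10 ± 0.55), Serpinb5 (-2.90 ± 0.46) and Tgm2 (-2.64 ± 0.41). Sprr1a, a precursor of the cornified envelope, had signals of 41660.0, 42992 and 36312 on the castrated luminal arrays, against 65405, 56010.0 and 95396 on the castrated basal arrays (-0.81 ± 0.15, adjusted p = 0.000863), and its difference turned to the other sign under quantile normalization.

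Largest among the rises, beside those above, were Anxa13 (7.51 ± 0.60), the pancreatic lipase relative Pnliprp1 (6.94 ± 0.55), Nlrp10 (6.64 ± 0.52), Bex1 (6.60 ± 0.97) and the small GTPase Arl14 (6.27 ± 0.81). Anxa13, an annexin known from gut and kidney epithelium, had signals of 5053, 4196 and 5703 on the castrated luminal arrays, against 39.9, 2.19 and 3.89 on the castrated basal arrays. Nlrp10 had signals of 1566, 1837 and 1826 on the castrated luminal arrays, against 1.52, 0.977 and 2.38 on the castrated basal arrays. Both were dim on every castrated basal array. With each dim signal raised to the 40th percentile of its array, Anxa13 was at least 88.3-fold, Nlrp10 at least 31.2-fold, Svs4 at least 37.7-fold and Dpp4 at least 33.9-fold higher in luminal cells. By the same floor Moxd1 was at least 54.2-fold, Elobl at least 37.4-fold and Bmp4 at least 14.2-fold lower.

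The same contrast in intact mice, which shares no array with the castrated one, called 2852 genes (19.5%). Of the 1643 genes higher in castrated luminal cells, 796 were also higher in intact luminal cells, 48.4% of the castrated and 49.3% of the intact list, and 12 were lower. Of the 1058 lower genes, 633 were also lower in intact mice, 59.8% and 51.2% of each list, and 6 were higher. In sign alone, 90.7% of the 1643 higher genes and 92.6% of the 1058 lower genes lay the same way in intact mice. Of the 847 higher genes not also called higher in intact mice, the change in difference passed for 51. Of the 425 such lower genes it passed for 20, where 1.15% of all genes passed. Across the 14645 genes the differences in castrated and intact mice had a Pearson correlation of 0.637 and a Spearman correlation of 0.561, given as a description because genes are not independent. The genes with the largest difference shared by both, by the smaller of their 2 values, were Rnase1, Mmp7, the glucose cotransporter Slc5a1 (5.98 ± 0.76 in castrated, 5.72 ± 0.76 in intact mice), Lrrc31 (5.34 ± 0.64 in castrated, 5.21 ± 0.64 in intact mice), Arfgef3 (5.13 ± 0.69 in castrated, 5.05 ± 0.69 in intact mice) and the forkhead factor Foxi1 (4.88 ± 0.53 in castrated, 5.49 ± 0.53 in intact mice) upward, and Krt5, Krt14, Snai2, Fmod, Tenm2 and Col17a1 downward.

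**Figure D4:**
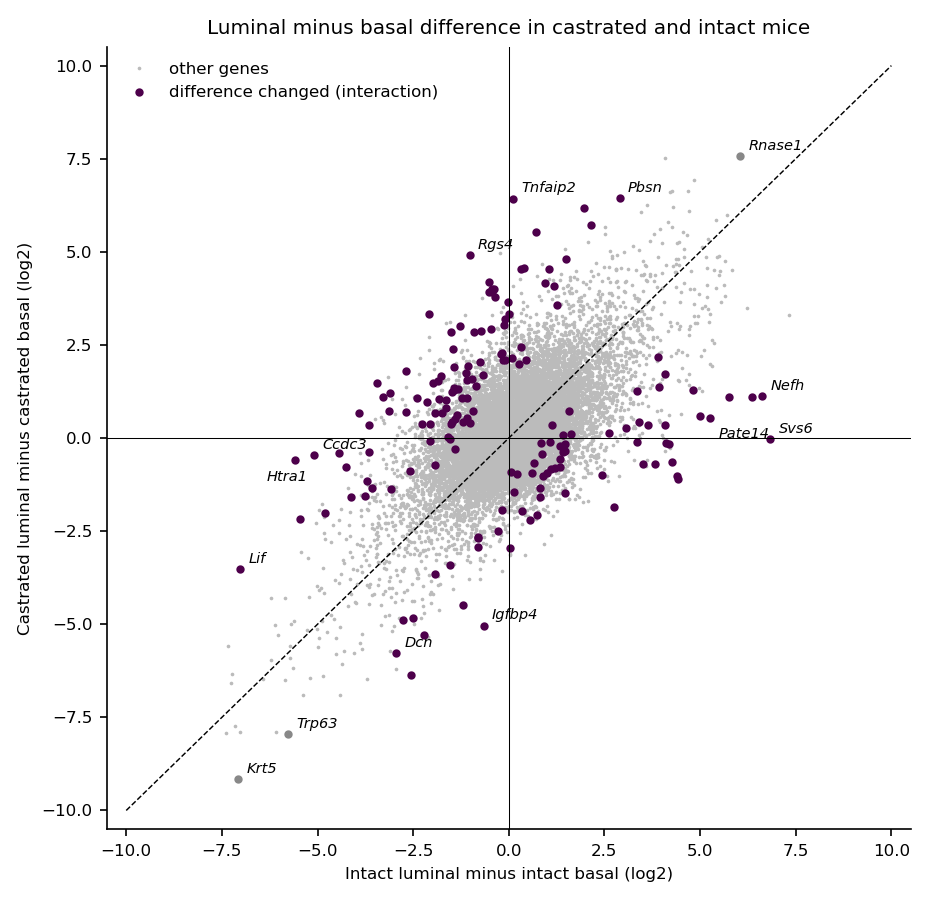
Luminal minus basal difference of each of 14645 genes in castrated mice (vertical axis) against the same difference in intact mice (horizontal axis), both in log2 units. Genes whose difference changed between the mice (168, adjusted p under 0.05 for the interaction) are drawn as dark points and some are named. Krt5 and Rnase1 lie at far ends near the dashed line of equal difference, Tnfaip2 lies high on the vertical axis near 0 on the horizontal axis, and Svs6 lies the other way round.

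A test of the change in the difference itself passed for 168 genes (1.15%). The luminal minus basal difference, sign included, was higher in castrated mice for 99 (0.676%) and lower for 69 (0.471%). Without an intensity trend in the variance model 27 passed, and without castrated luminal replicate 1, 2 and 3 the count was 83, 92 and 65. It was 104 without intact basal replicate 2. Beside Tnfaip2, the largest positive changes were those of the G protein regulator Rgs4 (5.94 ± 0.92), Mtmr11 (5.41 ± 1.06), the secreted protease Htra1 (4.998 ± 0.81), the caspase Casp12 (4.94 ± 0.80), Sec14l2 (4.83 ± 0.74), Cytip (4.70 ± 1.08) and Ccdc3 (4.63 ± 0.54). Rgs4 had signals of 596, 1064 and 629 on the castrated luminal arrays, against 27.5, 1.3 and 4.69 on the castrated basal arrays, with 34.9, 2.91 and 38.7 on intact luminal arrays and 34.2, 46.1 and 126 on intact basal arrays, which overlapped, so that the castrated luminal arrays stood above all others. Sec14l2 had signals of 4896, 6167 and 7348 on the castrated luminal arrays, against 162, 122 and 76 on the castrated basal arrays, with 1711, 1245 and 439 on intact luminal and 1035, 289.8 and 697 on intact basal arrays, which overlapped. For Ccdc3 the positive change came with a difference of -0.47 ± 0.38 in castrated mice (adjusted p = 0.447) against -5.10 ± 0.38 in intact mice (adjusted p = 1.14e-07). Htra1 likewise differed by -0.58 ± 0.57 in castrated and by -5.58 ± 0.57 in intact mice, and Casp12 by 1.48 ± 0.56 in castrated and by -3.46 ± 0.56 in intact mice.

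The largest negative changes were those of genes high in intact luminal cells and low in castrated luminal cells: Svs6 (-6.87 ± 1.26), Svs3a (-5.52 ± 0.95), the neurofilament Nefh (-5.49 ± 0.80), the complement protease C1s1 (-5.40 ± 0.86), the defensin Defb42 (-5.26 ± 1.24), Serpina1f (-4.91 ± 1.09), Pate14 (-4.72 ± 0.90) and Cd52 (-4.65 ± 1.08). Nefh had signals of 13.1, 13.9 and 58.8 on the castrated luminal arrays, against 1.95, 3.15 and 2.1 on the castrated basal arrays, with 1738, 1758 and 2953 on intact luminal and 5.01, 6.75 and 4.49 on intact basal arrays. Pate14 had signals of 21.7, 1.78 and 30.3 on the castrated luminal arrays, against 11.7, 3.44 and 2.35 on the castrated basal arrays, with 10559, 7578 and 5585 on intact luminal and 484, 108 and 111 on intact basal arrays. On the castrated arrays Pate14 overlapped between the cell types. Without 1 array, the calls of Cytip (10 of 12 cases), Defb42 (11 cases), Serpina1f (9 cases), Cd52 (9 cases) and Mtmr11 (1 case) were lost, with changes of 3.73 to 5.29, -6.59 to -4.33, -5.83 to -4.15, -5.25 to -3.50 and 4.69 to 6.34 over the cases. The secreted chaperone Clu kept its direction with a smaller difference after castration (-2.10 ± 0.32, adjusted p = 0.00374), and the proteoglycan Dcn and the ID gene Id3 had larger negative differences after castration (-2.82 ± 0.35 and -1.88 ± 0.35). The Dcn change was lost when probe sets were averaged.

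**Figure D5:**
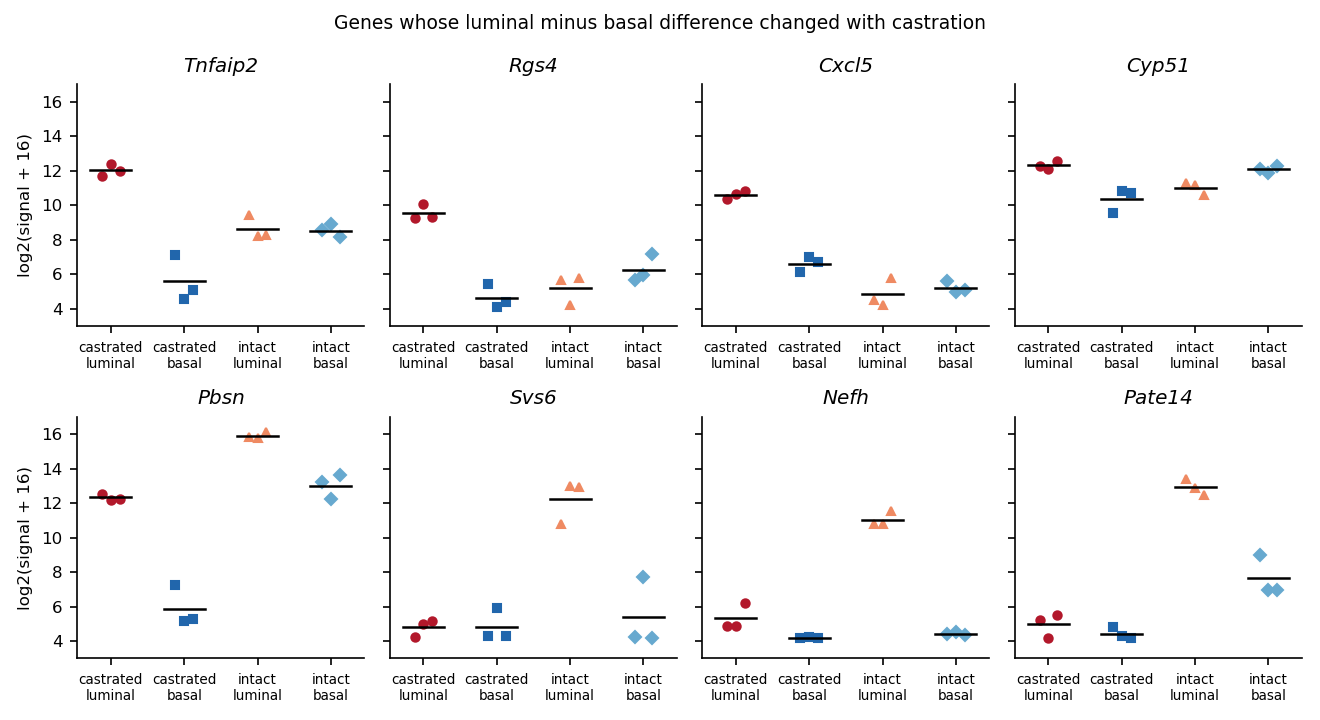
Signal of 8 genes whose luminal minus basal difference changed with castration, as log2 of signal plus 16, on every array of the 4 groups, in the order castrated luminal, castrated basal, intact luminal and intact basal. Short bars mark group means. Tnfaip2, Rgs4 and Cxcl5 are brightest on the castrated luminal arrays, and Svs6, Nefh and Pate14 on the intact luminal arrays.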

How the data were processed

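RNA of sorted prostate cells was extracted with the RNeasy Micro kit and amplified with the NuGEN Pico kit, per the labels' protocols. The values used are MAS5 intensity signals on a linear scale that the authors deposited, 1 column per array, per the submitters' processing notes. The version is not given in the sources used here. The 2% trimmed mean was 500 on each of the 12 arrays. MAS5 sets each array to 1 scale and leaves differences in the shape of the distribution in place, and amplification from small amounts of RNA adds spread at low signal. Precision is limited by there being 3 arrays in each group.

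Of 45101 probe sets, 34945 carried 1 gene symbol, 932 several and 9160 none, and 64 were controls. Only those with 1 symbol were used. A constant of 16 was added before log2. A probe set had to exceed the 40th percentile of its array on 3 or more arrays. The brightest of them by mean then stood for its gene, leaving 14645 of 18193 genes. All 4 groups entered 1 limma fit with an intensity trend in the variance and 8 residual degrees of freedom (limma 3.58.1, R 4.3.3, Python 3.11.15 for tables). Calls are Benjamini-Hochberg adjusted p-values under 0.05. Luminal and basal arrays of 1 replicate number come from paired sets of animals per the labels' design text. Deviations of same-numbered arrays from their group means correlated at 0.0128, 0.00522 and -0.00721 in castrated mice, and at 0.00912, 0.0147 and 0.02 in intact mice. The fit with the number as a block was an alternative. The others were the normalization, the constant, the filter, the arrays in the fit, the trend, array weights, averaged probe sets and leaving out each array.

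The members, the gene lists and the tests were chosen with earlier results of these data known. Genes were named by rule: the 12 largest rises and falls among passing genes whose groups did not overlap, up to 6 members of each list in each direction by adjusted p and 3 that did not pass by mean signal, a list of 30 genes, the 8 largest changes between castrated and intact mice in each direction, and the 6 largest shared differences in each direction. Another 50 genes were chosen after their values were seen: Bmp5, Cald1, Cd24a, Cd55, Cldn10, Cldn8, Cnn2, Crb3, Cxcl17, Egfr, Erbb2, Fgfr1, Flna, Fosb, Hgf, Hoxd10, Hoxd13, Id2, Igf1r, Igfbp2, Il33, Inhba, Insig1, Itgb4, Ivl, Lamb1, Marveld2, Mylk, Nid1, Nr4a1, Nr4a2, Pard6b, Pdgfra, Pdia4, Pdia6, Ptprc, Rab25, Sfn, Slc1a5, Slit3, Smad7, Spcs3, Sprr1a, Spry2, Tfap2a, Tfap2c, Tgfbr3, Thbs1, Wfdc15b and Xbp1. For 11 of the genes named as passing, another probe set had the opposite sign without passing, namely Adam10, Bcl2, Dcn, Dkk3, Heyl, Nr4a2, Pdia6, Sema4d, Slc1a5, Slc39a14 and Tenm2. Genes without a kept probe set of 1 symbol were not analysed here.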

Additional observations from a re-analysis of the deposited data

Results flagged for a closer look

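The 40 values below are changes of the luminal minus basal difference, castrated minus intact, on the log2 scale, for genes named above whose change passed the interaction test in limma over all genes. Both contrasts had 3 arrays per group. A positive change means that the luminal minus basal difference, sign included, was higher in castrated than in intact mice. The gap between the cell types can still be smaller, as for Htra1 (-0.58 in castrated, -5.58 in intact mice). With a negative change the gap can be wider, as for Dcn (-5.77 in castrated, -2.94 in intact mice).

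Among secreted products and genes of the secretory route the change was positive for Pbsn (3.55 ± 0.62) and Svs2 (4.22 ± 0.80) and negative for Svs6 (-6.87 ± 1.26), Svs3a (-5.52 ± 0.95), Defb42 (-5.26 ± 1.24), Pate14 (-4.72 ± 0.90), Serpina1f (-4.91 ± 1.09), C1s1 (-5.40 ± 0.86), Clu (-2.10 ± 0.32) and the mannosidase Man1a (-1.95 ± 0.41). The Svs2 change was 0.50 when probe sets were averaged. Pbsn was lower in castrated than in intact mice in both cell types, with differences of -3.57 in luminal and -7.12 in basal cells.

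Inflammatory and cell death genes had positive changes at Tnfaip2 (6.32 ± 0.85), Cxcl5 (4.37 ± 0.83), Il1rn (3.24 ± 0.74), Lif (3.50 ± 0.68), Casp12 (4.94 ± 0.80), Bok (4.43 ± 1.00) and Cytip (4.70 ± 1.08), and negative ones at Bcl2 (-1.74 ± 0.36), Ddit3 (-2.40 ± 0.47) and Cd52 (-4.65 ± 1.08). For Lif the cell types differed by less after castration, since both differences were negative. Sterol genes had positive changes at Cyp51 (3.01 ± 0.46), Sqle (3.33 ± 0.57), Insig1 (2.79 ± 0.47) and Hmgcs1 (2.43 ± 0.34).

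Surface and matrix genes had positive changes at Cd44 (2.37 ± 0.46), Htra1 (4.998 ± 0.81), Thbs1 (1.71 ± 0.26) and Lgr4 (2.27 ± 0.49), and negative ones at Dcn (-2.82 ± 0.35), Unc5b (-2.76 ± 0.51) and Cd24a (-0.84 ± 0.19). Growth factor regulators had negative changes at Igfbp4 (-4.38 ± 0.74), Fst (-3.80 ± 0.86) and Id3 (-1.88 ± 0.35). Of the rest, Rgs4 (5.94 ± 0.92), Mtmr11 (5.41 ± 1.06), Sec14l2 (4.83 ± 0.74), Ccdc3 (4.63 ± 0.54) and the iron exporter Slc40a1 (2.89 ± 0.67) had positive changes, and the neurofilament Nefh (-5.49 ± 0.80) a negative one.

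Of these 40 changes, 9 passed under every alternative run and 17 were lost on leaving out 1 array in at least 1 case. With the replicate number as a block, 7 had adjusted p-values over the threshold, 0.0615 for Bok, 0.0612 for Cd24a, 0.0714 for Cd52, 0.0565 for Il1rn, 0.0539 for Lgr4, 0.0597 for Serpina1f and 0.0638 for Slc40a1. On leaving out 1 array, the Fst change was lost in 11 of 12 cases and those of Bok and Il1rn in 10 each. Those of Cd24a and Slc40a1 were lost in 9 cases each, Lgr4 in 8, Man1a in 7 and Bcl2 in 6.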

How the results depend on the processing

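Counts of differing genes in castrated mice ran from 1720 to 3109 when 1 array was left out, those in intact mice from 2160 to 3138, and those of changes between them from 65 to 163. The count of changes was 27 without an intensity trend. The constructions share genes: 2569 of the 2701 genes also passed with the replicate number as a block, which called 2687 genes in castrated mice, 2778 in intact mice and 129 changes, and which ended no call of a named gene other than those given above. Array weights called 3920 genes in castrated mice and included all 2701. Leaving out castrated basal replicate 3 and intact luminal replicate 3 together, an alternative chosen after seeing the data, called 2781. Over the other alternatives the castrated count lay between 2157 and 3322.

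Of the 248 named genes that passed in castrated mice, 214 passed under every alternative, 34 lost their call under at least 1, and 16 lost it without some array. Calls were lost without an intensity trend for Actb, Atf4, Cd24a, Eef1a1, Egfr, Foxa1, Krt8, Man1a, Notch1, Psca, Rplp0, Runx1, Smad2, Sprr1a, Thbs1 and Ywhaz, under quantile normalization also for Thbs1, under median centring for Cd24a, Krt8 and Smad2, and with 1 added for Bmp5, Egfr, Krt16, Mtmr11, Psca and Tyrobp. Man1a lost its call with only the 6 castrated arrays in the fit, Egfr and Notch1 without a filter, and Psca with averaged probe sets. Of the list medians given above, the following moved over 1.5 times, beside the moves stated there. Luminal identity was at 1.67 under quantile normalization, secretory products at 2.22 with 1 added. The TGF-beta and BMP list was at -0.69 with averaged probe sets. The ErbB, FGF, IGF and MET list was at -0.76 under median centring and at -0.81 with the 60th percentile as filter. Inflammatory genes were at 0.60 under quantile normalization, 0.68 with 1 added, 0.235 with 64 added and 0.233 without a filter. Contractile genes were at -0.93 without a filter, and axon guidance genes at -0.40 with 64 added and -0.43 without a filter. Medians of other lists moved as well, such as that of keratins, from -0.20 to 0.54 under quantile normalization. Counts of members also moved. With array weights, the lower Notch genes went from 6 to 11 and the higher oxidative phosphorylation genes from 9 to 17. Signs turned for 9 genes. Under quantile normalization the difference was 0.0835 for Cldn4, 0.16 for Eef1a1, 0.0289 for Hspa5, 0.54 for Krt18, 0.15 for Rplp0, 0.0358 for Sprr1a and 0.0817 for Svs6. Epcam was at -0.27 under median centring, and ran from -0.11 without castrated luminal replicate 2 to 0.106 without castrated basal replicate 3, with -0.0597 and -0.0425 without castrated basal replicates 1 and 2. Ptprc was at 0.81 with 1 added, 0.22 with array weights, and ran from -0.59 without castrated basal replicate 1 to 0.74 without castrated basal replicate 3, also with intact luminal replicate 3 left out. Svs6 was at 0.20 with 1 added, 0.25 without castrated luminal replicate 1 and 0.52 without castrated basal replicate 2, and its change between castrated and intact mice was lowest, at -8.04, without intact basal replicate 2. Cldn4 ran from -0.42 without castrated basal replicate 2 to 0.0911 without castrated basal replicate 3, with or without intact luminal replicate 3. The cause of these turns was not tested. Dim signals limit the size of the differences that rest on them.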
